A study of Apostichopus japonicus with 9 samples.

Results

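A set of 6 names of miRNAs known from nerve cells was followed in intestines of sea cucumbers (Apostichopus japonicus) held in warm water. They were taken by name from the tables of the study, which list 409 different miRNA names in all. The set comprises 2 miR-124 names (miR-124-3p and miR-124), 3 miR-9 names (miR-9-4-3p, miR-9a-1-3p and miR-9b) and miR-153-5p. The table for 48 h lists 3 of them among 290 names, the table for 6 h lists 4 among 275, and miR-9-4-3p alone stands in both. Animals of 100 to 120 g were held under heat at 26 °C for 6 h or for 48 h, or kept under conditions labelled normal. Each group had 3 libraries, each from the intestine of 1 individual. The same control group served both heat times, and neither its temperature nor its sampling time is stated, so time in the experiment and heat cannot be told apart. The label of nerve cells rests on the miRNA names, and the tables hold no marker of nerve cells or of intestine other than miRNAs.

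A miRNA is a short RNA cut from a hairpin that guides silencing of messenger RNAs, mainly through the bases of its seed near the 5′ end. The suffixes 5p and 3p name the arm of the hairpin a mature miRNA comes from. miR-124 is found in nerve cells across bilaterian animals, where in vertebrates it holds down transcripts of other cell types, among them that of the splicing factor PTBP1, and in sea urchin embryos it acts on Notch and NeuroD in the making of neurons. miR-9 acts in neural progenitors and neurons of vertebrates, where both arms of the hairpin target parts of the REST repressor complex, and in Drosophila miR-9a limits the number of sensory organ precursors. miR-153 is a brain miRNA of vertebrates that targets transcripts of synaptic proteins such as SNAP25. The sea cucumber gut carries nerve fibres in its wall, so whole intestine holds nerve cells together with muscle, epithelium and other cells. The deposited names mostly belong to other species, and stand for the known sequences that reads were matched to. The sequences behind the names were not used here.

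The tables hold 1 pooled read count and 1 mean level for each group. The level is in RPM, the reads of a name per M reads of its library (M for mega), and is the authors' mean over the 3 libraries, with no SD. If a single library holds every read of a name, dividing its pooled count by its summed RPM returns the size of that library. In M reads, the control libraries held 91.6, 109 and 145, those of 6 h held 54.4, 69.3 and 96.9, and those of 48 h held 57.2, 61.9 and 113. Libraries are named by these totals below. The smallest level of a library behind a name with reads in 1 library was 20.01 RPM, so a name listed at 0 was read as lying under about 20 RPM in each of the 3 libraries. The tables list only names more than 2-fold apart on pooled reads, and the authors' q-values compare pooled reads, so they cover counting error and not the spread between animals.

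The miR-124 names were the abundant ones. miR-124-3p had an authors' mean of 1832 RPM at 48 h, against 700 RPM in the control, 2.62-fold higher. Its pooled counts were 359344 reads at 48 h and 215194 reads in the control. In both groups these reads were spread over at least 2 libraries. In the authors' deposited table miR-124-3p had a log2 ratio of 1.31 (48 h over control) with a q-value entered as 0. By level it stood at place 16 of the 194 listed names with reads at 48 h, and at place 19 of 169 in the control. miR-124 followed it closely, with 1789 RPM at 48 h, against 683 RPM in the control, also 2.62-fold higher. Its 350528 reads at 48 h were 2.45% fewer than those of miR-124-3p, and its 210088 reads in the control were 2.37% fewer. With counts this near in both groups the pair was treated as sharing reads and is 1 measurement rather than 2.

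**Figure D1:**
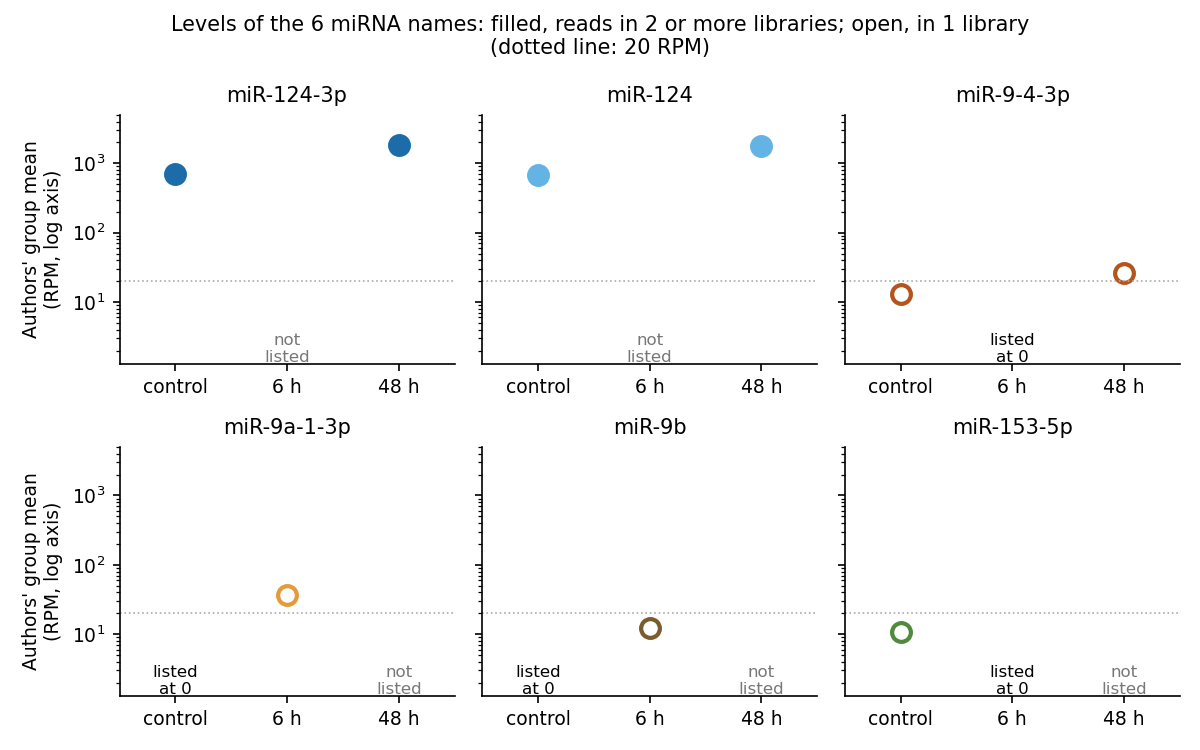
Authors' mean level in RPM on a log axis for each of the 6 names in the control, at 6 h and at 48 h. Filled points have reads in 2 or more libraries, open points in 1 library, and the dotted line marks 20 RPM. The miR-124 names lie between 683 and 1832 RPM and every other name at 37.3 RPM or less.

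The spread among the 3 animals of a group is not in the tables, but count and mean together bound it. At 48 h the library of 113 M reads had between 374 and 802 RPM of miR-124-3p. Either of the other 48 h libraries could have had as little as 0, and at most 4694 RPM in the library of 57.2 M reads and 5122 RPM in that of 61.9 M reads. At least 1 of them had 2449 RPM or more. In the control the library of 91.6 M reads had between 782 and 1667 RPM, the library of 109 M reads at most 1316 RPM and the library of 145 M reads at most 432 RPM. The highest control library therefore had at least 997 RPM, whereas the lowest 48 h library had at most 740 RPM. Whatever the split, at least 1 library at 48 h lay below the highest control library, and the groups overlapped. miR-124 gave the same order, with at most 716 RPM in the lowest 48 h library and at least 975 RPM in the highest control library.

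**Figure D2:**
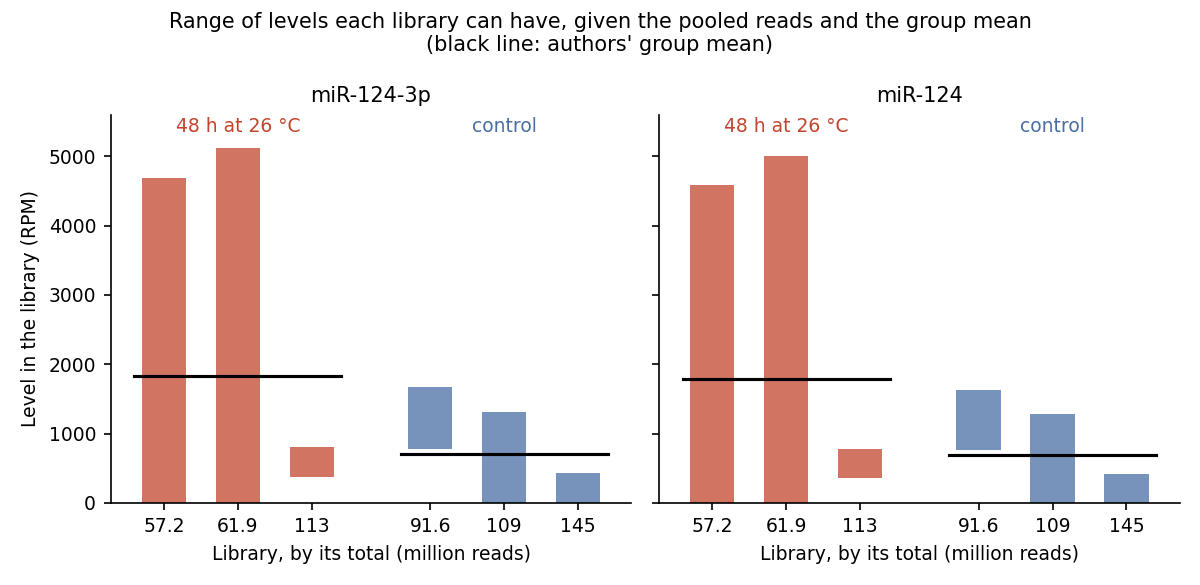
Range of levels in RPM that each library can have for miR-124-3p and miR-124, given the pooled count and the group mean, at 48 h (left, red) and in the control (right, blue). Libraries are named by their total in M reads and black lines are the authors' means. The 48 h library of 113 M reads reaches at most 802 RPM of miR-124-3p, while the control library of 91.6 M reads has at least 782 RPM.

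The smallest coefficient of variation that the columns of miR-124-3p allow was 58.2% at 48 h and 69.7% in the control. At 48 h between 44.6% and 93.2% of the summed level lay in the library with the most, and in the control between 47.5% and 79.4%. Without the library with the most, the mean of the other 48 h libraries was between 187 and 1523 RPM, so the direction of the difference is not fixed once that library is left out. The mean of the other control libraries was between 216 and 551 RPM.

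The same bounds were computed for comparable names. At 48 h, 35 higher names had reads in at least 2 libraries of each group. Of these, 80.0% (28 names) could have had all 48 h libraries above all control libraries, and 7 could not. The 7 come from 5 sets of shared reads. They are the miR-124 pair, miR-2004 and miR-2004-3p, miR-4005c-5p, miR-1715-5p and miR-2763-3p, named after their values were seen. The difference between the miR-124 pair and the others was not tested.

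The most abundant listed miRNA, miR-10c-5p of the Hox cluster family, was bounded in the same libraries. At 48 h at least 99.9% of its summed level lay in the library of 113 M reads, at 142859 RPM or more, where miR-124-3p had at most 802 RPM. In the control it was spread over at least 2 libraries. Its level there was at least 185238 RPM in the library of 145 M reads, where miR-124-3p had at most 432 RPM. It was up to 198030 RPM in the library of 109 M reads, where miR-124-3p had at most 1316 RPM. In the library of 91.6 M reads, where miR-124-3p had at least 782 RPM, miR-10c-5p could have had between 0 and 133083 RPM. What these libraries share beyond depth was not tested, nor was its part in the miR-124 difference.

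The 6 h table does not list either miR-124 name. It lists names more than 2-fold apart, so a level of miR-124-3p at 6 h is not given. If the name was among those tested there, its pooled level at 6 h lay between 311 and 1246 RPM, within 2-fold of the pooled control level of 623 RPM. Its pooled level at 48 h was 1546 RPM, above that range.

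miR-9-4-3p was the only one of the 6 with a listed value at every time. Its authors' mean was 13.1 RPM in the control, 0 at 6 h and 26.1 RPM at 48 h. All 8869 reads at 48 h came from the library of 113 M reads, at 78.3 RPM there, and all 5678 control reads came from the library of 145 M reads, at 39.2 RPM. Each of the other libraries lay under about 20 RPM. In the authors' deposited table its log2 ratio at 48 h was 1.22 on pooled reads, while the ratio of the authors' means was 1.997-fold, or 0.998 on the log2 scale, just under 2-fold. With libraries at 0 set to 20 RPM the log2 ratio at 48 h was 0.58, below 2-fold. At 6 h the same replacement gave a log2 ratio of -0.40, where the authors' deposited table has -12.82 with 0.5 reads in place of 0. The 48 h library that held miR-9-4-3p is the one in which miR-124-3p had at most 802 RPM.

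The other miR-9 names were listed at 6 h with the control at 0, which stands for under about 20 RPM per library. miR-9a-1-3p had 37.3 RPM at 6 h, against a listed 0 in the control. All of its 6080 reads came from the library of 54.4 M reads, which had 112 RPM. Set against 20 RPM in every control library, its mean was at least 1.86-fold higher, short of 2-fold. miR-9b had 12.2 RPM at 6 h, against a listed 0 in the control, and all of its 2533 reads came from the library of 69.3 M reads, at 36.6 RPM. The exact 95% Poisson interval of that count, 2435 to 2634 reads, covers counting error only. Since the mean of miR-9b lies under 20 RPM, the counted reads alone give no fold against a control at 0. The counted reads of the pair thus lay in different 6 h libraries, and in each remaining library of the 6 h and control groups these names were under about 20 RPM. Neither name is in the 48 h table. With the control at 0, counted reads at 48 h would have put them more than 2-fold apart. Both names were therefore read as under about 20 RPM in each 48 h library.

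The listed miR-9 names summed to 49.4 RPM at 6 h, against 13.1 RPM in the control, and to 26.1 RPM at 48 h, against the same 13.1 RPM. Each of these sums is made of names with reads in 1 library, and the names differ between the times. Whether reads of 1 miRNA were given different names in different libraries was not tested.

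miR-153-5p was listed at 0 at 6 h, against 10.7 RPM in the control. All 2944 control reads came from the library of 91.6 M reads, at 32.1 RPM. That library held all reads of 80 of the 127 listed names with control reads in 1 library. With libraries at 0 set to 20 RPM its log2 ratio at 6 h was -0.27, where the authors' deposited table has -11.88. The value of -0.27 rests on the replaced libraries. The counted reads alone give no fold, since the control mean itself lies under 20 RPM. The name is not in the 48 h table, which lists names more than 2-fold apart. If it was among those tested there, its pooled level at 48 h lay within 2-fold of the pooled control level of 8.52 RPM.

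**Figure D3:**
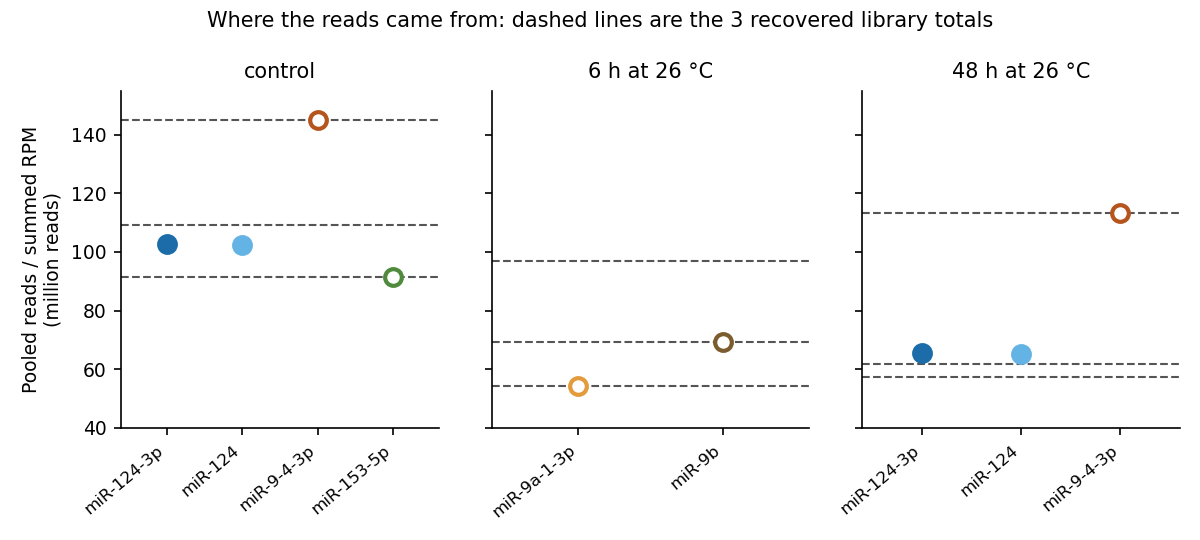
Pooled reads divided by summed RPM, in M reads, for each name with reads in the control, at 6 h and at 48 h, and dashed lines at the 3 library totals of the group. Open points, which have all reads in 1 library, lie on a dashed line. The miR-124 names lie off the lines, at 65.4 and 65.3 M reads at 48 h and at 103 M reads in the control.

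A name counts as called here if it is listed, with an authors' q-value under 0.05 and more than 2-fold apart on pooled reads. The q-values of names not listed are not given. The 6 names were taken from those listed, so that each is called was fixed by the choice. The 3 names listed at 48 h were higher and none was lower. Of the 415 miRNAs tested at 48 h, 69.9% were listed, 43.1% as higher and 26.7% as lower. Of the 4 names listed at 6 h, miR-9a-1-3p and miR-9b were higher, and miR-9-4-3p and miR-153-5p lower. There 68.2% of the 403 tested were listed, 38.7% as higher and 29.5% as lower. A stricter call was also made, with every library that could lie under 20 RPM set against the difference and a ratio of at least 2 asked for. It left the miR-124 pair at 48 h, with 14.5% of those tested higher and 6.99% lower by it, and none of the 4 names at 6 h, with 12.9% higher and 7.2% lower. The median log2 ratio of the 3 names at 48 h was 1.31, all with reads in both groups. The median of 1.55 over all 290 listed includes many ratios against a group at 0, in both directions, so it is no like comparison. At 6 h the 4 ratios, 2 in each direction, are all against a group at 0 and were given no median.

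Among the 35 higher names spread over at least 2 libraries of each group, 15 had a larger log2 ratio than miR-124-3p and 12 a higher level at 48 h. The log2 ratios of the 35 lay between 1.04 and 6.89 with a median of 1.24. Names in the 48 h table and not in that for 6 h, with counts spread over at least 2 libraries of each group, were ranked by the difference of their log2 ratio from it, over the 48 h and control groups. Of 23 such names outside the 6, the nearest were miR-1-3p, miR-1c and miR-1a-3p, with differences of 0.0044, 0.0045 and 0.0064. These share reads and belong to the muscle miRNA miR-1. miR-1715-5p, with 814 RPM at 48 h and 244 RPM in the control, and miR-125, with 66.0 RPM at 48 h and 26.7 RPM in the control, came next, with differences of 0.015 and 0.074.

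Other miRNAs known from nerve cells were counted from a fixed list of 11 numbers. Only listed names could be counted. The list had 5 listed names at 48 h, all higher, where 179 of the 290 listed names were higher (43.1% of all tested). By the stricter call 4 of them were higher, where 60 of the 290 listed names were (14.5% of all tested). The 5 join to 4 sets of shared reads, and all but miR-210a are miR-7 names, so the count is mainly that of 1 family. Among them miR-7-5p, of a family found in neurons and secretory cells, had 763 RPM at 48 h, against 218.4 RPM in the control. For miR-7-5p the columns allow all 48 h libraries to lie above all control libraries, since the lowest 48 h library could have up to 718 RPM and the highest control library as little as 270 RPM. They also allow an overlap, with the lowest 48 h library at 0 and the highest control library at up to 620 RPM. miR-7a had 272 RPM at 48 h from 1 library, against a listed 0 in the control. At 6 h the list had 1 higher and 1 lower name, neither by the stricter call.

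Names from the marker lists of other cell types were also called at 48 h. Of the 290 names listed there, 179 were higher and 111 lower, or 60 and 29 by the stricter call. Over all tested these are 43.1% and 26.7%, or 14.5% and 6.99% by the stricter call. The muscle list had 6 higher and 2 lower names, which join to 6 sets of shared reads, and the stricter call kept 3 of the higher and 1 of the lower. Its summed level, with shared reads counted once, was 18016 RPM at 48 h, against 7323 RPM in the control. The epithelial list had 2 higher names, both also by the stricter call, summing to 1458 RPM at 48 h, against 0 in the control, with miR-8 not listed at 48 h. The secretory list, miR-375, had 4 lower names that join to 3 sets, 3 of the names lower by the stricter call, with 775 RPM at 48 h, against 2145 RPM in the control. The sensory and ciliated list had 1 higher and 2 lower names, none by the stricter call, and summed to 11.9 RPM at 48 h, against 18.7 RPM in the control. No name of the blood cell and vertebrate immune list was listed at either time. Of the 275 names listed at 6 h, 156 were higher and 119 lower, or 52 and 29 by the stricter call. Over all tested at 6 h these are 38.7% and 29.5%, or 12.9% and 7.2% by the stricter call. There the muscle list had 2 higher and 1 lower name, none by the stricter call, at 12.3 RPM against 9.32 RPM in the control, and the secretory list had 1 higher and 3 lower, the 3 lower also by the stricter call, at 830 RPM against 2145 RPM in the control. The sensory and ciliated list had 3 lower names there, none by the stricter call, at 0 against 27.3 RPM in the control, and the epithelial list had miR-8 alone, lower also by the stricter call, at 0 against 69.8 RPM in the control. Each of these sums holds only the names listed at that time, so sums of the same control group can differ between the times. The abundant miR-1 names of the 48 h table, such as miR-1c with 6987 RPM in the control, are not listed at 6 h. The muscle control sums of 7323 and 9.32 RPM therefore cover different names. So do the sensory and ciliated control sums of 18.7 and 27.3 RPM. The part of these cell types in the results was not tested. In whole intestine, a change in the number of cells and a change in the RNA per cell cannot be told apart.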

How the data were processed

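Small RNA of 18 to 30 nt was taken from total RNA of each animal's intestine by gel, ligated to adapters, amplified, selected at 140 to 160 bp and sequenced on a HiSeq, per the labels' protocols. Not given in the sources used here are the aligner, the build, the miRNA database and the name of the authors' test. The authors deposited 1 table for each heat time, with a read count per group, an expression value, a log2 ratio, a p-value and a q-value, per the file headers. On the values, the count pools 3 libraries, and the deposited expression value is the mean RPM, with 0.001 for a library at 0. The deposited log2 ratio equals that of pooled counts over pooled totals to within 0.00039. From the q-values over the p-values, the authors tested 403 miRNAs at 6 h and 415 at 48 h, of which 128 and 125 are not listed and not analysed here.

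No replicate test can be run on group values, so the design's fallback, the authors' q-value under 0.05, was used. Computed here, in Python 3.11.15 with NumPy 2.4.6 and pandas 2.3.3, were the library totals, the assignment of names to 1 library within rounding, and the range of library levels that count and mean allow together. Names of 1 number with counts within 15% in both groups share reads. For the stricter call, libraries that could lie under 20 RPM counted as 0 where the group was higher and as 20 RPM where it was lower (1 such library where 2 or more had reads), and a ratio of 2 was asked for. On simulated pooled columns, all 105, 110 and 124 names in 1 library (48 h, 6 h and control) were recovered, none of 89, 66 and 78 others was assigned to 1 library, and the bounds held for all of these. All 6 members were named in every table that lists them, with the miR-7 names and the 5 names nearest to miR-124-3p. Members and lists were chosen with earlier results of these data known. Intervals cover counting error only.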

Additional observations from a re-analysis of the deposited data

How the results depend on the processing

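Of the 4 names called at 6 h, 0 passed the stricter call, and with shared reads counted once they were still 4. At 48 h the 3 calls became 2 by the stricter call and 2 with shared reads counted once. A q-value under 1e-10 could remove no call at either time, since every listed name lies far under it, and at 6 h a change of totals could remove none either, since the deposited ratios are against a 0. At 48 h the 3 calls were still 3 without the 5 most abundant listed names in the totals. Leaving out the 5 most abundant names listed at each time moved every log2 ratio by -0.05 at 48 h and -0.23 at 6 h. At 48 h miR-71c-5p and miR-71 share reads, as do miR-1a-3p and miR-1-3p, so shared reads were taken off more than once. Abundant names not listed at 6 h, such as miR-71c-5p with 9299 RPM in the control, stayed in the 6 h totals. Leaving out the library with the most, in either group, gave log2 ratios from -1.90 to 3.09 for miR-124-3p and from -1.94 to 3.09 for miR-124 at 48 h, the negative ends arising where the 48 h library with the most holds as much as the columns allow. The bounds without the highest control library were added after seeing the data. With libraries at 0 set to 20 RPM, miR-9-4-3p at both times, miR-9b (log2 ratio 0.35) and miR-153-5p at 6 h fell short of 2-fold, and miR-9a-1-3p stayed past it at 1.34. Without the 1 library that holds their reads in the higher group, these 4 names had no counted reads left in that group, so no fold was computed. No paired analysis was possible because the tables hold 1 pooled value per group. In a library 20 RPM stands for 1088 to 2898 reads, and levels under it are not given by the tables. The part of depth in the differences was not tested.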

Other observations

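Further names that carry the number of miR-124, miR-9 or miR-153 were listed at 48 h. All had the control at 0, and none of them is in the 6 h table. miR-124b had 7.14 RPM and miR-124b-3p 6.98 RPM at 48 h, and their counts of 1225 and 1198 reads came from the library of 57.2 M reads, at 21.4 and 20.9 RPM. miR-153c-5p had 11.9 RPM at 48 h, with all 2205 reads in the library of 61.9 M reads at 35.6 RPM. Together with the 3 names described above, the 48 h table thus lists 6 names that carry the number of miR-124, miR-9 or miR-153. These join to 4 sets of reads, and 4 of the 6 names had all 48 h reads in 1 library. The names were grouped by number and not by sequence, so relatives listed under other numbers were not counted.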
